A study of Mus musculus with 8 samples.

Results

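The Il10 family locus on mouse chromosome 1 was examined in 4 deposited peak lists from D1 cells. It was taken as 5 listed genes, Il24, Il20, Il19, Il10 and Mapkapk2, together with 100 kb on either side, which in mm9 is chr1:132678651-133094144 (415 kb). These are 5 of 22350 annotated protein-coding genes. The span held the summits of 6 of 9438 NFATc2 peaks, and of 5 H3K4me3 peaks in each condition, out of 15799, 14872 and 14878. The genes were listed by name and the peaks taken by position within the span, with no threshold on a measured value.

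D1 is a long-term splenic DC line from C57BL/6 mice, and every library came from it. For NFATc2, D1 cells that stably carried a V5-tagged NFATc2 delivered by lentivirus were treated for 30 min with 10 μg/ml curdlan, a particulate β-glucan that engages dectin-1. ChIP was directed at V5, so the sites are those of an added and not of the native protein. For H3K4me3, the cells were non-treated (NT), treated with curdlan at 10 μg/ml for 2 h, or treated for 2 h with curdlan and FK506, a calcineurin inhibitor that keeps NFAT out of the nucleus, whose dose the labels do not give. The labels name these cells only as D1. Each condition had 1 ChIP and 1 input library, so no comparison between conditions has a replicate check and none is given a p-value. ChIP depth, from the headers, was 14377535 tags for NFATc2 and ranged from 16662316 (NT) to 21289349 (curdlan) for H3K4me3. H3K4me3 was called within 1 kb of a TSS at 15 of 15 genes that mark DCs, in every condition, and at 1 of 15 genes of other cell types, Cdh1. The share of all protein-coding genes was 48.7% to 49% over the conditions. An NFATc2 summit lay within 30 kb of a TSS at 12 of 15 DC markers and 5 of 15 others, beside 30.2% of all protein-coding genes. The NFATc2 summits nearest to these genes were 0.15 kb from Cd74, 0.29 kb from Ciita and 0.56 kb from H2-Ab1 among the DC markers, and 6.84 kb from Cd3g, 8.22 kb from Cdh1 and 13.8 kb from Cd4 among the others.

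IL-10 is an anti-inflammatory cytokine that restrains DCs and macrophages, while IL-19, IL-20 and IL-24 belong to the same structural family but act mainly on epithelial cells through IL-20 receptors. Mapkapk2 encodes MK2, a kinase downstream of p38 that stabilises cytokine mRNAs, and it lies next to Il10 in mouse and human. NFAT proteins bind DNA through a GGAAA core, often beside AP-1, whose consensus is TGANTCA. H3K4me3 is a histone mark of promoters in an active or poised state.

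In genomic order, Il24 (ENSMUSG00000026420.9) occupied chr1:132778651-132784031, Il20 (ENSMUSG00000026416.5) chr1:132803769-132807873 and Il19 (ENSMUSG00000016524.6) chr1:132829235-132836650, all on the minus strand. Il10 (ENSMUSG00000016529.5) followed on the plus strand at chr1:132916422-132921551, and Mapkapk2 (ENSMUSG00000016528.3) on the minus strand at chr1:132950281-132994144. Beyond the members, 5 other protein-coding genes had a TSS in the span. These were Fcamr, Pigr and Faim3 before Il24, which encode receptors or binding proteins of immunoglobulins, and Dyrk3, a kinase, and Eif2d, a translation initiation factor, beyond Mapkapk2.

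The 6 NFATc2 sites are numbered from site 1 to site 6 along the chromosome. Sequence is shown for the site nearest to Il10, for the pair before Mapkapk2 that fell inside H3K4me3 peaks, and for the strongest site. Each run is the plus strand of mm9 from 65 bases before to 65 bases after the summit, with capitals for GGAAA on either strand and for the AP-1 consensus.
site 1 (chr1:132886087-132886217): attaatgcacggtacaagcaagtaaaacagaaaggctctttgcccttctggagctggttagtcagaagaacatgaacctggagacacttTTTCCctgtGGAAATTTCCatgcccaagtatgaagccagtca
site 3 (chr1:133000388-133000518): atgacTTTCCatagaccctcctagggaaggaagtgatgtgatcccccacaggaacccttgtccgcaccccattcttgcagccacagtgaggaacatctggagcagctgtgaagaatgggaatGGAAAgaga
site 4 (chr1:133007518-133007648): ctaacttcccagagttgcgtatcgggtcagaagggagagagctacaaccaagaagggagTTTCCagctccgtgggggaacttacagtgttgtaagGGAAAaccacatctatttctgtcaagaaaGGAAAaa
site 6 (chr1:133081041-133081171): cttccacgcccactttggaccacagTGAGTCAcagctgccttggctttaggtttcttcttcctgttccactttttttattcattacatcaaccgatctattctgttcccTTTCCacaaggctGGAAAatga
In site 1 a GGAAA and its reverse complement stood side by side as GGAAATTTCC, 33 bp from the summit. In site 3 both copies of GGAAA lay near the ends of the window, the nearer one 56 bp from the summit.

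The longer NFAT motif GGAAAA, searched on both strands within 100 bp of the summit, was found at 4 of the 6 sites, against 45.6% of all 9438 summits and 18.0% of windows 1 kb to either side. These were sites 1, 2, 4 and 6, with the nearest copy 23, 15, 30 and 57 bp from the summit. In site 3 the nearest GGAAAA was 211 bp away, and the peak of site 5 held none. The shorter GGAAA, which every GGAAAA contains, was found within 100 bp at 6 of 6 sites and at 86.7% of all summits. Of the 12 windows 1 kb from these sites, 1 held the longer motif and 6 the shorter. The AP-1 consensus TGANTCA was found at sites 5 and 6, at 42 and 34 bp from the summit, or 2 of 6 sites against 21.8% of all summits and 6.15% of the windows beside them. A κB-type motif, GGG and CC with 5 free bases between them, was found at sites 2 and 4, against 21.6% of all summits and 19.2% of the windows beside them. As it requires GGG, this pattern could not match the GGAAATTTCC of site 1, and looser κB patterns were not searched. GAGGAAGT, a PU.1-type sequence, was found at 0 of 6 sites against 9.27% of all summits and 1.44% of those windows. The run GGAAATTTCC, which was searched for after the sequence of site 1 had been read, stood within 100 bp of 39 of the 9438 summits (0.413%) and in 0.0159% of the windows beside them.

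NFATc2 bound the locus unevenly. The 3 cytokine genes Il24, Il20 and Il19 had no summit within 30 kb of a TSS and lay in a stretch without any NFATc2 peak, whereas 5 of the 6 sites stood at or beyond Mapkapk2. Among windows of the same length that tile the genome without overlap, 8.05% of 6197 held 6 or more summits, and 10.5% of the 4558 that contain a protein-coding TSS did. The median was 0 summits in all windows and 1 in those with a TSS. As a description, the locus thus held more sites than most windows of its length.

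Site 1 was the single site on the cytokine side of Mapkapk2. It lay 30.3 kb upstream of the Il10 TSS in an intergenic position at chr1:132885812-132886336. Its 25 tags (95% counting interval 16.2 to 36.9) placed it among the weakest peaks of the list, with 5.32% of all peaks having fewer tags. Its fold enrichment of 16.4 over input stood higher, above that of 67.0% of peaks. It was the nearest site for all 4 cytokine genes, at 49.5 kb from Il19, 78.3 kb from Il20 and 102 kb from Il24, always from the upstream side. No H3K4me3 peak of any condition came within 99.4 kb of it.

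Before site 1 the chromosome was free of NFATc2 peaks for 2264 kb, back to a peak with a summit at position 130621149 and 136 tags. Of 9418 stretches between neighbouring peaks in the genome 2.45% were as long, and the median was 52.6 kb. The stretch contained 14 protein-coding genes, from Thsd7b to Il19. Among them were Cd55 and C4bp, which restrain complement, the polymeric immunoglobulin receptor gene Pigr, and the members Il24, Il20 and Il19. Beyond site 1 the distances from each summit to the next were 94.8, 19.5, 7.13, 13.0 and 60.5 kb.

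**Figure D1:**
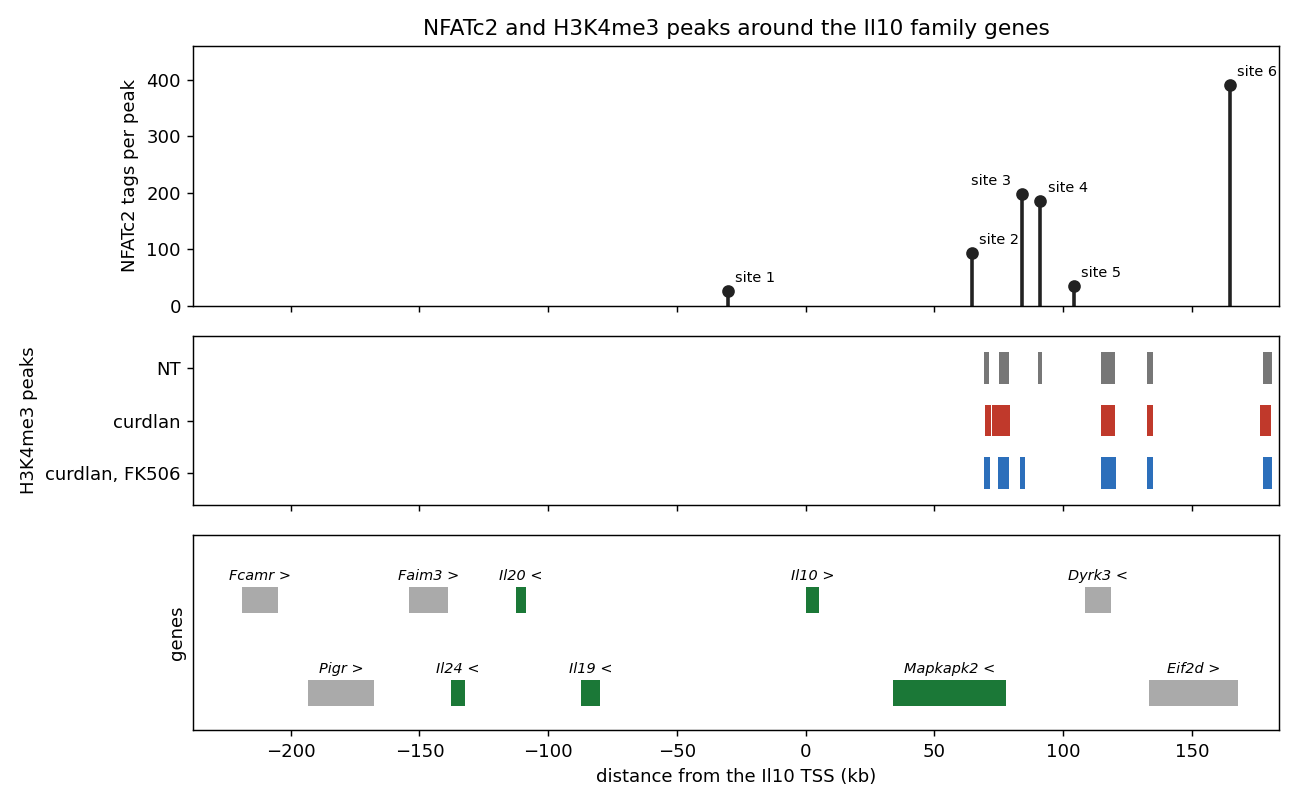
Map of the span by distance from the Il10 TSS (kb), with tags of the 6 NFATc2 peaks (top), H3K4me3 peaks of each condition as bars to scale (middle) and protein-coding genes with members in green and arrowheads for the strand (bottom). Apart from site 1 at -30.3 kb with 25 tags, all NFATc2 and H3K4me3 peaks lay at or beyond Mapkapk2.

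Around Mapkapk2 there were 3 sites of medium to high tag count. Site 2, in an intron 13.2 kb downstream of the TSS at chr1:132980349-132981944, had 94 tags and a fold enrichment of 11.6. Site 3 was the site nearest to the TSS of a member, 6.31 kb upstream of Mapkapk2 at chr1:132999717-133001198. It had 197 tags (170 to 227), more than 93.3% of all peaks, and a fold enrichment of 25. Site 4, 13.4 kb upstream at chr1:133006705-133008567, had 186 tags (160 to 215) and a fold enrichment of 12.6. The counting intervals of sites 3 and 4 overlapped, and both exceeded that of site 2 (76.0 to 115). On fold enrichment, sites 2 and 4 stood above only 35.7% and 44.0% of all peaks, and site 3 above 89.3%.

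The other sites lay beyond Mapkapk2. Site 5 was an intergenic site 14.2 kb past the TSS of Dyrk3, which is transcribed towards it, at chr1:133020290-133021029. With 34 tags (23.5 to 47.5) it resembled site 1 in count, and their intervals overlapped. Site 6, at chr1:133079883-133082486, lay within introns of both Eif2d and Rassf5, a gene for a Ras and Rap binding protein. It was the strongest site of the span, with 391 tags (353 to 432), more than 99.3% of all NFATc2 peaks, and a fold enrichment of 32.2. The nearest protein-coding TSS was that of a short Rassf5 transcript, 15.6 kb away.

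**Figure D2:**
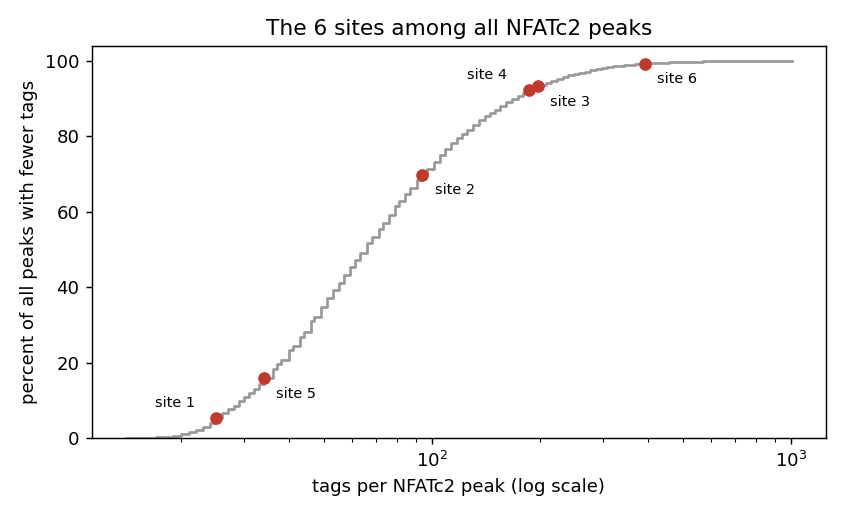
Tags per NFATc2 peak (log scale) against the percent of all 9438 peaks with fewer tags, with the 6 sites as red points on the grey curve of all peaks. Sites 1 and 5 sat low on the curve, at 5.32% and 15.9%, and sites 3, 4 and 6 above 92%.

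By the limit of 30 kb from a TSS, 1 of the 5 members had an NFATc2 summit, against 30.2% of all protein-coding genes. That member was Mapkapk2. Il10 fell just outside the limit, with its summit at 30270 bp, and Il19 was the next at 49502 bp. The count for the members is too small to be set apart from the background.

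H3K4me3 divided the locus at Mapkapk2 in every condition. Of the 5 members, 1 had a peak within 1 kb of a TSS in each list, and each time it was Mapkapk2. The background was 49% of protein-coding genes in NT, 48.9% after curdlan and 48.7% after curdlan and FK506. Il24, Il20, Il19 and Il10 had no such peak in any list. Measured from the gene body, the nearest H3K4me3 peak to Il10 was 64.0 to 64.4 kb away over the 3 lists. For Il19 it was at 149 kb in each. A missing peak means that the signal did not pass the threshold of the peak caller. The weakest H3K4me3 peaks of the 3 lists had 18, 26 and 23 tags, and percentile 1 of the tag counts was 32, 49 and 42. These counts are not a limit of detection, and weak marks may have been missed.

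The stretch without H3K4me3 around the cytokine genes kept nearly the same borders. It ran from position 132615446 to 132985593 in NT, and measured 370 kb in every list. As long or longer were 9.12%, 9.72% and 9.64% of all stretches between neighbouring H3K4me3 peaks, whose medians were 35.2, 38.4 and 38.2 kb. It held 8 protein-coding genes, namely AA986860, Fcamr, Pigr, Faim3 and the cytokine genes Il24, Il20, Il19 and Il10. Windows of the same length with 5 or more H3K4me3 summits made up 19.6% to 20.9% of all windows, so the number of peaks in the span was not rare.

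**Figure D3:**
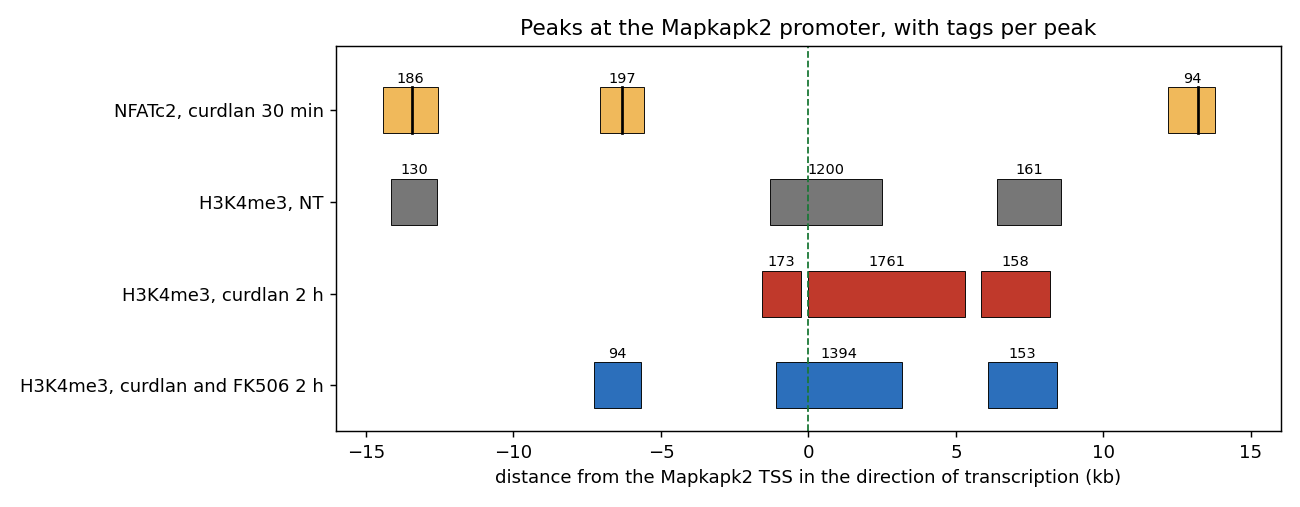
Peaks within 16 kb of the Mapkapk2 TSS (dashed line), drawn in the direction of transcription with distance in kb and labelled with their tags; black lines mark NFATc2 summits. With curdlan the promoter peak reached 5298 bp into the gene, against 2500 bp in NT and 3161 bp with FK506, and peaks over NFATc2 sites appear in 1 list each.

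At the Mapkapk2 promoter H3K4me3 was high in all conditions. In NT a peak of 3788 bp with 1200 tags covered the TSS, at a fold enrichment of 68.2. With curdlan there were 2 peaks with 1761 and 173 tags, 1934 in sum, and the highest fold enrichment was 140. With curdlan and FK506 a peak of 4273 bp held 1394 tags at a fold enrichment of 103.9. In the same order these fold enrichments were above those of 90.5%, 96.5% and 93.4% of marked protein-coding genes. The summit of the main peak hardly moved, standing 360, 364 and 352 bp inside the gene.

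Per 1000000 ChIP tags (RPM) the Mapkapk2 promoter had 72.0 tags in NT, 90.8 with curdlan and 71.6 with FK506. The larger curdlan peak alone had 82.7 RPM (counting interval 78.9 to 86.7), above the NT interval of 68.0 to 76.2 and the FK506 interval of 67.9 to 75.5. These intervals cover counting error only, not the spread between cultures. At Dyrk3 the NT and curdlan intervals were also apart, but with NT higher (57.2 to 64.7 against 42.0 to 47.7). The same held at Eif2d (33.4 to 39.2 against 27.3 to 32.0). Separate intervals were thus not particular to Mapkapk2, and their share over all promoters is not given here. All genes with a peak in both lists shifted by a median of 0.73 (log2 fold enrichment) from NT to curdlan, by -0.27 from curdlan to curdlan with FK506 and by 0.45 from NT to curdlan with FK506. Changes are therefore given after subtracting that median.

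Relative to other promoters, Mapkapk2 was 0.31 higher with curdlan than in NT, 0.16 lower with curdlan and FK506 than with curdlan (a centred log2 difference of -0.16) and 0.15 higher with curdlan and FK506 than in NT. The comparisons share libraries, so they are not independent. A difference of 1 or more on this scale was taken as a call, and 0 members reached it in either direction (without centring, Mapkapk2 stood at 1.04 for curdlan over NT). Of all promoters compared, 3.82% were called higher and 3.7% lower with curdlan than in NT. The shares were 3.35% and 3.88% for FK506 against curdlan, and 3.31% and 3.31% for FK506 against NT. In RPM the centred log2 differences of Mapkapk2 were 0.46, -0.30 and 0.17. In RPM per kb, which divides by the covered length, they were -0.29, 0.31 and 0.02, so that the direction of the first and second turned with the measure.

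**Figure D4:**
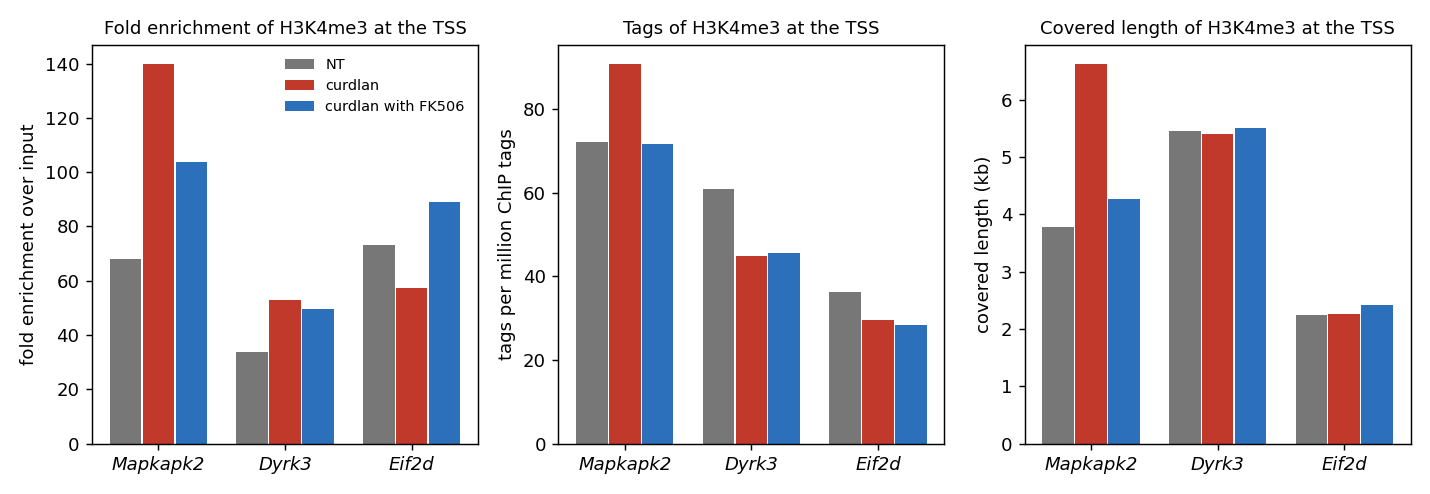
Fold enrichment over input, RPM and covered length (kb) of H3K4me3 at the 3 marked promoters of the span, with 1 bar for each condition (1 library each, no error bars). The covered length of Mapkapk2 was 6631 bp with curdlan, against 3788 bp in NT and 4273 bp with FK506, while that of Dyrk3 was 5407 to 5508 bp and that of Eif2d 2244 to 2427 bp.

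The Mapkapk2 peak also differed in width. The length covered by the promoter peaks was 3788 bp in NT. It was 6631 bp with curdlan, as the sum of both peaks, and 4273 bp with curdlan and FK506. The extra length lay inside the gene, since the peak began 2500 bp downstream of the TSS in NT, 5298 bp with curdlan and 3161 bp with FK506. The ratio of curdlan to NT was 1.75, and 2.79% of 13976 H3K4me3 regions called in both lists reached 1.5 or more, around a median of 1.03. The ratio of FK506 to curdlan was 0.644, and curdlan was at least 1.5 times as long as FK506 at 1.25% of 13720 regions. This measure was added after the peaks had been seen. With curdlan the peak was split, and the larger part ended 1 bp short of the annotated TSS. The curdlan ChIP library was also the deepest and its input the smallest, with 2.29 ChIP tags per input tag against 1.38 in NT and 1.96 with FK506, and the part of depth in the width was not tested.

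Inside Mapkapk2, a weaker H3K4me3 peak in an intron, with a summit about 7.4 kb downstream of the TSS, was present in all 3 lists. It had 161 tags in NT, 158 with curdlan and 153 with FK506, and fold enrichments of 8.76, 11.4 and 11.3. The counting intervals of the 3 tag counts overlapped. It stood between the promoter and NFATc2 site 2, whose summit lay 4.66 to 5.02 kb from its edge.

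Site 3 and site 4 each lay inside an H3K4me3 peak of 1 list. Over site 3, a peak of 94 tags at a fold enrichment of 14.01 was called only with curdlan and FK506, at chr1:132999816-133001418 and with an FDR of 2.11%. Over site 4, a peak of 130 tags at a fold enrichment of 12.5 was called only in NT, at chr1:133006739-133008289 and with an FDR of 0.37%. Both were weak for their lists, since 9.44% of FK506 peaks had fewer tags than the first and 19.5% of NT peaks fewer than the second. Regions called in 1 list alone made up 5.42% of NT regions, 2.47% of curdlan regions and 1.91% of FK506 regions. No test between conditions could be made at either site. The median such region had 66 tags in NT and 65 with FK506, and 19.4% and 16.3% of them held an NFATc2 summit. Altogether 2 of 6 sites lay in an H3K4me3 peak of any condition (33.3%, 95% Wilson interval 9.68% to 70.0%), against 26.7% of all NFATc2 summits. In the list for 2 h of curdlan it was 0 of 6 sites (upper Wilson limit 39.0%) against 23.3%, while the NFATc2 library was made after 30 min.

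Dyrk3 and Eif2d, the neighbours beyond Mapkapk2, were marked throughout. Dyrk3 had 1014 tags in NT, 954 with curdlan and 887 with FK506, with fold enrichments of 33.7, 52.9 and 49.8, and centred differences of -0.08 (curdlan over NT) and 0.18 (FK506 over curdlan). Eif2d had 603, 630 and 551 tags, with fold enrichments of 73.1, 57.5 and 88.9. Its centred difference was -1.08 for curdlan over NT, past the limit of a call, and 0.90 for FK506 over curdlan. In RPM, centred over all shared regions, the differences of Eif2d were -0.15 and -0.02, so the limit was passed on fold enrichment alone. A further peak crossed the end of the span at the short Rassf5 transcript, with 1795, 1851 and 1493 tags.

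**Figure D5:**
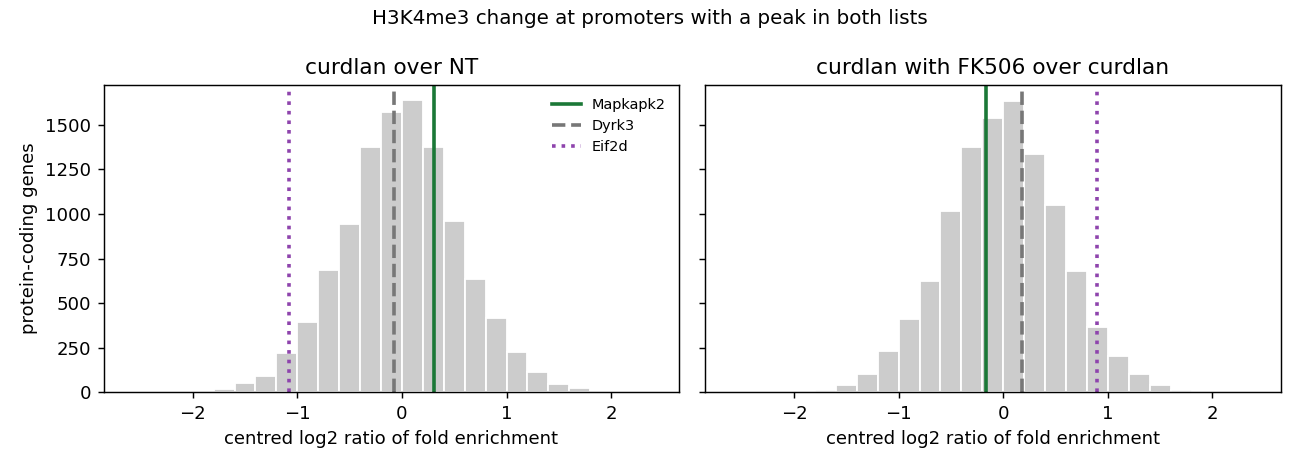
Histogram of the centred log2 ratio of fold enrichment over all protein-coding promoters with a peak in both lists (y axis: genes), with vertical lines for Mapkapk2, Dyrk3 and Eif2d. Mapkapk2 lay near the middle of both histograms (0.31 and -0.16), and Eif2d towards the tails (-1.08 and 0.90).

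The genes whose H3K4me3 was most like that of Mapkapk2 were sought among 10746 protein-coding genes marked in all 3 lists, by the distance between centred log2 fold enrichments. They were 1700054N08Rik (distance 0.03), Nsun2, an RNA methyltransferase gene (0.04), and Rps3a, a ribosomal protein gene (0.08). Nsun2 had fold enrichments of 70.1 in NT, 140 with curdlan and 103 with FK506. Such likeness over 3 libraries is only a description.

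Among the receptor genes of the family, H3K4me3 stood at Il10ra and Il10rb. Of 7 receptor genes 2 were marked in all conditions, beside 48.7% to 49% of all protein-coding genes. These encode the chains of the IL-10 receptor and had 2321 (Il10ra) and 920 (Il10rb) tags in NT. The remaining genes, Il20ra, Il20rb, Il22ra1, Il22ra2 and Il28ra, were not marked. NFATc2 summits were 0.29 kb from a TSS of Il10ra, 1.90 kb from Il20rb and 31.8 kb from Il10rb. Within 30 kb were 2 of the 7 genes, near the 30.2% of all protein-coding genes. The 4 ligand genes elsewhere in the genome, Il22, Iltifb, Il28a and Il28b, had no promoter H3K4me3 in any list and 0 of 4 had a summit within 30 kb. These counts are too small to be set apart from the same backgrounds. Their nearest summits were at 31.1 kb for Il22, 112 kb for Iltifb and 125 kb for Il28a.

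Of 11 genes of IL-10 receptor signalling, 10 were marked in each list (background 48.7% to 49%). An NFATc2 summit lay within 30 kb of 8 of the 11, against the same background of 30.2%. The summit nearest to Socs3, a feedback inhibitor induced by IL-10, was 0.02 kb from its TSS, that of Socs1 0.90 kb and that of Jak1 2.99 kb. Jak1, the kinase bound to the IL-10 receptor, was the only 1 of them called, with fold enrichments of 65.4, 201 and 68.6 and a centred difference of -1.28 for FK506 over curdlan. That is 1 of 10 marked genes, beside 3.88% of all promoters, and in RPM the centred difference of Jak1 was -0.05. Of 14 genes of the p38 and MK2 pathway, 12 were marked (background 48.7% to 49%) and 7 had a summit within 30 kb (background 30.2%). The nearest were at Mapkapk3 (0.22 kb), the closest relative of Mapkapk2, at Map2k3 (0.95 kb), a kinase that activates p38, and at Zfp36l1 (1.22 kb). Map2k3 was called lower with FK506 than with curdlan (-1.04), at fold enrichments of 62.0, 171 and 69.0, as 1 of 12 marked genes beside the same 3.88%. In RPM its centred difference was -0.14, short of a call. Median centred differences of the p38 and MK2 list were 0.09 for curdlan over NT and 0.02 for FK506 over curdlan.

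Of 19 genes that lead to Il10 induction in myeloid cells, from the dectin-1 gene Clec7a to transcription factors, 19 were marked in each list, where 48.7% to 49% of all protein-coding genes were, and 13 had a summit within 30 kb, beside 30.2%. The list was put together by hand from known pathway genes, so these counts say nothing particular to it. The nearest were at Nfkb1 (0.06 kb), Fos (0.18 kb) and Map3k8 (0.38 kb), which encodes the kinase upstream of ERK. Cebpb was called higher with curdlan than in NT (1.02), with fold enrichments of 27.7, 93.1 and 43.5, as 1 of 19 genes beside 3.82% of all promoters. In RPM its centred difference was 0.75, below the limit of a call. Among the DC markers Ciita, the master regulator of MHC class II genes, was called lower with curdlan than in NT (-1.15, and -0.57 in RPM), beside 3.7% of all promoters. Irf8, a transcription factor of the DC lineage, was called higher with curdlan and FK506 than in NT (1.57, and 0.86 in RPM), beside 3.31%. None of these 5 calls, from Jak1 to Irf8, was reached in RPM. Other genes of these lists passed 1 in centred RPM without a call on fold enrichment. For curdlan over NT they were Socs3 (1.03), Nfkb1 (1.10) and Mapk11 (1.63), and Mapk11 stood at -1.42 for FK506 over curdlan. For FK506 over NT they were Socs3 (1.09), Dusp1 (1.05) and Zfp36l2 (-1.80). The share of all promoters that passed 1 in RPM is not given here. No gene of these lists gained or lost its promoter peak between conditions. Such changes were rare among all protein-coding genes, so this is not particular to the lists. In each comparison 85 to 109 genes gained and 115 to 144 lost a peak, beside 10800 to 10815 with a peak in both conditions.

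The listed cytokine genes of both other loci used for comparison lacked promoter H3K4me3, as the cytokine genes of the Il10 family did. The background was 48.7% to 49% of protein-coding genes. The spans themselves were not free of the mark. The type 2 span held 10 H3K4me3 peaks in each list. The Ifng and Il22 span held 2 in NT, 1 with curdlan and 1 with FK506. In the Ifng and Il22 locus on chromosome 10 (441 kb with the same flanks), 0 of 3 genes were marked, and 5 NFATc2 summits with 27 to 176 tags gave 1.13 per 100 kb. The nearest to Ifng was at 2.03 kb. In the type 2 cytokine locus on chromosome 11 (864 kb) 0 of 5 genes were marked, and 6 summits with 40 to 82 tags gave 0.69 per 100 kb. Here Il3 had a summit at 6.04 kb and Csf2 at 23.6 kb, while Il5, Il13 and Il4 had theirs at 42.2, 128 and 144 kb. The Il10 family span had 1.44 summits per 100 kb, most of them at or beyond Mapkapk2 and none inside a cytokine gene. The count inside cytokine genes is not given for the other loci. Over the genome, windows as long as the Il10 family span held a mean of 1.52 summits, and 1.95 where they contained a protein-coding TSS, against 6 here.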

How the data were processed

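ChIP-seq reads of D1 cells were mapped by the authors to mm9 with bowtie 1, and peaks were called in each ChIP library against its input with MACS (1.4.2 per the file headers) at p of 1e-05, with band widths of 300 bp (NFATc2) and 1000 bp (H3K4me3). The headers allow 1 tag per position and list equal totals before and after that filter. The deposited tag count per peak is not normalized, the deposited fold enrichment is a ratio to the background expected from the input, the deposited score is 10 times the negative log10 of p and the deposited FDR is in percent. Wide marks can be split into several peaks, and deeper libraries can give longer ones.

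Summits were placed on the GENCODE annotation of NCBI build 37 (mm9) with 37252 genes. Promoter peaks lay within 1 kb of a TSS, their highest fold enrichment and summed tags were used, and log2 ratios were centred on the median over protein-coding genes marked in both lists. Intervals (95%, exact Poisson or Wilson) cover counting error only. With 1 library per condition no test between conditions was made. Members and gene lists were chosen with earlier results of these data known. Named genes were the members, span genes with a peak, and, in each list, those with a change of 1 or more on fold enrichment (up to 4) or the nearest NFATc2 summits (up to 3). Genes of these lists that passed 1 in RPM alone were also named. Older gene symbols were matched through RefSeq synonyms. Alternative thresholds, windows, flanks and measures were recomputed. Functions were tested on simulated data. The tools were Python 3.11.15 with scipy 1.17.1, pandas 2.3.3, numpy 2.4.6, matplotlib 3.10.9 and pysam 0.24.0, and samtools 1.23.1.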

Additional observations from a re-analysis of the deposited data

How the results depend on the processing

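Of 60 alternative values for 13 results, 42 stayed close to the reported ones and 18 moved. At a MACS p of 1e-10 or less, 5 NFATc2 summits were left in the span. The one lost was site 1, the site nearest to the cytokine genes, with a MACS p of 2.5e-09. At a p of 1e-20 or less, 2 NFATc2 summits were left in the span (sites 3 and 6), 3 H3K4me3 peaks in NT and 3 with FK506, where 3 were left also at 1e-10. Flanks of 200 kb held 8, 9 and 9 H3K4me3 peaks. Members with an NFATc2 summit numbered 4 within 100 kb of a TSS and 2 (with Il10) when each summit went to its nearest TSS. With the TSS itself required inside the peak, Mapkapk2 counted as unmarked with curdlan, leaving 0 members, because the peak ended 1 bp before it. The Mapkapk2 change of H3K4me3 was, in the order curdlan over NT, FK506 over curdlan and FK506 over NT, 1.04, -0.43 and 0.61 without centring, where the first passed the limit of 1, and -0.29, 0.31 and 0.015 in RPM per kb, where the first and second turned in sign. In RPM the first and second were 0.46 and -0.30. Counting peaks that touched the span gave 6 in each list. This and the RPM values of genes outside the span were added after seeing the data. Sites 1 and 5, with 25 and 34 tags, are near what this depth can show, and a single library per condition limits every comparison.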

Other observations

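Just beyond the span, at the far side of Mapkapk2, H3K4me3 was called at the TSS of Ikbke, which encodes the kinase IKKε of interferon and NF-κB signalling, in the treated lists alone. The peak had 84 tags with curdlan at a fold enrichment of 14.7 and 49 tags with curdlan and FK506 at 14.2, where its FDR was 5.57%, and NT had no peak there. The long Rassf5 promoter had 549 tags in NT, 749 with curdlan and 597 with FK506. NFATc2 peaks followed at both sides of it, with 116 tags inside Rassf5 and 76 tags 5712 bp upstream of its TSS. In introns of Srgap2, a regulator of Rac signalling, NFATc2 peaks had 219 and 48 tags, and an H3K4me3 peak of 113 tags was called with curdlan alone. These positions were read after the values had been seen, and no difference between the conditions was tested.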
